A study of Mus musculus with 15 samples.

Results

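Complement is a cascade of serum proteins that marks targets for uptake by phagocytes, and it was followed here through 8 genes in foamy and non-foamy BV2 cells with or without Trem2. The 8 genes were named for their place in the cascade, with earlier results of these data known, and read by symbol from tables of 54390 genes. C1qa, C1qb and C1qc encode the chains of C1q, which starts the classical pathway. C3 and C4b encode the thioester proteins that are cleaved and deposited on a target. Cfp encodes properdin, which stabilizes the alternative pathway convertase. C3ar1 and C5ar1 encode the receptors for the C3a and C5a fragments. Macrophages and microglia are known as a major local source of C1q, whereas the liver makes most of the C3 and C4 of blood. The products of these genes act outside the cell or at its surface, and their transcripts alone were measured here.

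BV2 is an immortalized mouse microglial line that serves as a macrophage model. RNA was sequenced from 15 libraries in 4 groups. WT non-foamy cells (n = 4) and Trem2-/- non-foamy cells (n = 3) were kept in media, and WT foamy cells (n = 4) and Trem2-/- foamy cells (n = 4) received 20 μg/ml soluble cholesterol overnight. The cholesterol was carried by methyl-beta-cyclodextrin and non-foamy cells received media alone, so cholesterol and its carrier cannot be told apart. Trem2-/- cells were made with a guide RNA in a Cas9-expressing BV2 line that was itself a single clone, and Trem2-/- clones were picked by limiting dilution. How many clones gave RNA, and whether WT cells in these libraries carried Cas9, is not given in the sources used here. Genotype and clone therefore cannot be told apart. Nothing says that replicates were separate cultures, so p-values measure the spread between these samples, which may be technical.

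Each library held 23538963 to 41683825 counted reads, and in groups of 4 no library stood apart from the others in the 8 genes by Dixon's test. Trem2, the targeted gene, was lower in Trem2-/- cells and still transcribed: it ranged from 327 to 415 CPM in the 8 WT libraries and from 214 to 232 CPM in the 7 Trem2-/- libraries. These are transcript levels. The study reported knockout of Trem2 protein in its Trem2-/- BV2 cells, by flow cytometry after soluble cholesterol treatment. CPM are counts scaled to a fixed total (1000000 reads per library) after adjusting library sizes by TMM factors. Of 8 general macrophage and microglia markers, all 8 passed the count filter, and their summed level was 2468 to 2921 CPM in WT libraries and 3472 to 3731 CPM in Trem2-/- libraries. In each genotype comparison 6 of these 8 markers were higher in Trem2-/- cells and 0 were lower, at an adjusted p under 0.05 in edgeR. Over all genes tested, 21.0% were higher and 22.6% lower in non-foamy cells, and 14.3% and 15.9% in foamy cells. The same shares apply to the marker counts that follow. Markers of homeostatic microglia were nearly absent, with Sall1 at 0 reads in every library and P2ry12 at 2.46 CPM in its highest library. Of the 6, 4 were tested, and 2 were lower and 0 higher in Trem2-/- cells in each genotype comparison. Their summed level was 3.03 to 4.66 CPM in WT and 1.37 to 2.58 CPM in Trem2-/- libraries. All 4 fibroblast markers, 3 of 4 neuron markers and 3 of 4 hepatocyte markers were at 0 in every library, as were 2 of 4 astrocyte markers and 1 of 4 each for oligodendrocytes, endothelial cells and T and B cells. The highest level of any marker of these 7 lists in a library was 2.44 CPM. In each genotype comparison 1 of 2 oligodendrocyte markers tested was lower in Trem2-/- cells, and the 1 astrocyte marker tested was higher in non-foamy cells. The part of these markers in the complement results was not tested. A change in the share of cells that express a gene and a change in its RNA per cell cannot be told apart in these bulk libraries.

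The promoters of the 4 genes that were higher in Trem2-/- cells in both culture conditions are shown first, because these are the genes on which the genotype results turn. Each is the RefSeq sequence from 250 bases before to 50 bases after the annotated start site, in the mouse build GRCm38.p6, written 5′ to 3′ along the minus strand on which all 4 genes lie. Capitals mark matches on either strand to 5 short motifs that were searched: GGAAGT (the core bound by the ETS family, PU.1 included), TGCTGA (the MAF core), TTGCNNAA (C/EBP), GAAANNGAA (IRF) and TGANTCA (AP-1).

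C1qb, chr4:136886151-136886450: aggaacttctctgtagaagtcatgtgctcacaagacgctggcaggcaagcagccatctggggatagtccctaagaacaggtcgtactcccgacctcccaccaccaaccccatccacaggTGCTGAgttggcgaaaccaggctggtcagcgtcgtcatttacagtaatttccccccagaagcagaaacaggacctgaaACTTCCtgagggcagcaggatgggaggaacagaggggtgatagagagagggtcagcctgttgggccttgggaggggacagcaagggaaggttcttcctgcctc

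C1qc, chr4:136892865-136893164: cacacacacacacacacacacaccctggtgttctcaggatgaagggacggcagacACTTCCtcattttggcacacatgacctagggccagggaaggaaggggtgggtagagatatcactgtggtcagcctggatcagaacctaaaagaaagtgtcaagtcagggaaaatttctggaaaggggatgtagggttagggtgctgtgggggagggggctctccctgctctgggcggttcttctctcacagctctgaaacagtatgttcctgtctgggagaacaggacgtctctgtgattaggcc

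C3, chr17:57228087-57228386: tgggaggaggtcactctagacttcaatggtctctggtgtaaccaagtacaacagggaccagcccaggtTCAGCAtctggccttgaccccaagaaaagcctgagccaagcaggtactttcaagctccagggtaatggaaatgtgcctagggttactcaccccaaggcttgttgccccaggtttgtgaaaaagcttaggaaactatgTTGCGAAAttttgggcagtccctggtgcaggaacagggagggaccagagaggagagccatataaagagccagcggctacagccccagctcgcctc

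C3ar1, chr6:122856108-122856407: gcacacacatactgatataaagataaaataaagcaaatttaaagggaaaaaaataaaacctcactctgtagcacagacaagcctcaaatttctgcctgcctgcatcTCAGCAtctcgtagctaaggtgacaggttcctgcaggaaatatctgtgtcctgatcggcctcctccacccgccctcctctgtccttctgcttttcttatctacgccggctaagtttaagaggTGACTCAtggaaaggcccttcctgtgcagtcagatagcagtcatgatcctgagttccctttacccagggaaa

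The ETS core was found on the opposite strand 53 bases before the start site of C1qb and 195 bases before that of C1qc. All distances are from the RefSeq start site. The GENCODE annotation used below for gene positions starts C1qc further upstream, at base 136893065. The C1qb promoter also held a MAF core 131 bases before its start. The C3 promoter held a MAF core on the opposite strand 182 bases upstream and a C/EBP match 45 bases upstream. The C3ar1 promoter held a MAF core on the opposite strand 144 bases upstream and an AP-1 match, read on both strands, 22 bases upstream. No searched motif was common to all 4. The promoters of C5ar1 and Cfp were also in the table, and those of C1qa and C4b are named only. C5ar1 held 2 ETS cores, a MAF core and an IRF match directly beside the nearer ETS core, and Cfp held none of the 5. Of 32851 promoters of the same length, 23.8% held the ETS core, 19.5% the MAF core, 10.8% the C/EBP motif, 8.56% the IRF motif and 7.81% the AP-1 motif. These matches describe letters in a window and no binding was measured.

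Levels of the 8 genes were first ordered within each group, as CPM per kilobase of annotated exon. C3ar1 was the highest of the 8 in every group, from 32.4 ± 3.46 CPM per kb (SD, n = 4) in WT non-foamy cells to 47.0 ± 3.42 (SD, n = 4) in Trem2-/- foamy cells. In WT non-foamy cells Cfp followed at 17.7 ± 1.55 CPM per kb and C1qb at 14.2 ± 1.26, and the libraries of these neighbours overlapped. C3 at 4.71 ± 0.783 and C1qc at 4.34 ± 0.559 CPM per kb came next and also overlapped. C5ar1, C1qa and C4b closed the order at 0.530 ± 0.233, 0.251 ± 0.0867 and 0.240 ± 0.0405 CPM per kb, with overlap between neighbours. In WT foamy cells the order of the upper 5 genes was the same, and Cfp and C1qb no longer overlapped.

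In Trem2-/- cells C1qb stood above Cfp. The level of C1qb was 25.5 ± 2.21 CPM per kb (SD, n = 3) in non-foamy and 29.4 ± 2.48 (SD, n = 4) in foamy cells, against 17.2 ± 1.18 and 21.2 ± 1.79 CPM per kb for Cfp, without overlap between the libraries of the pair. C3 and C1qc, which overlapped in WT cells, were apart in both Trem2-/- groups, with C3 at 10.8 ± 1.09 and 8.93 ± 1.10 CPM per kb and C1qc at 5.85 ± 0.808 and 6.26 ± 0.738. The 3 lowest genes stayed below 0.8 CPM per kb in every library.

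**Figure D1:**
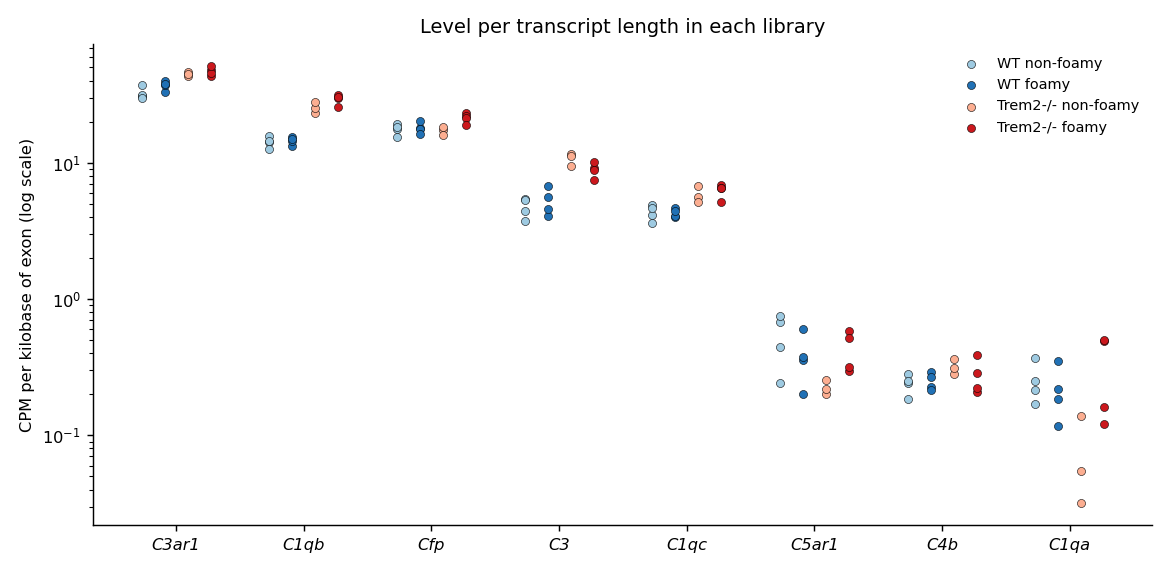
Level of each complement gene per library, as CPM per kilobase of exon on a log axis, with 1 point per library and 1 colour per group. C3ar1 lay highest in every group, C1qb lay above Cfp in Trem2-/- libraries, and C5ar1, C4b and C1qa stayed below 0.8 CPM per kb.

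Loss of Trem2 was then compared within each culture condition. Of the 8 genes, all passed the filter on low counts. In non-foamy cells 5 of 8 had an adjusted p under 0.05, 4 of them higher in Trem2-/- cells (C1qb, C1qc, C3 and C3ar1) and 1 lower (C5ar1). Over all 14237 genes tested, 43.6% were called in this comparison, 21.0% as higher and 22.6% as lower. In foamy cells 5 of 8 were called, and all 5 were higher in Trem2-/- cells (C1qb, C1qc, C3, C3ar1 and Cfp). Here 30.2% of all genes were called, 14.3% as higher and 15.9% as lower. The comparisons used different libraries, and 4 of 8 genes were called in both, all as higher. Over all genes tested, 11.6% were called as higher in both and 24.9% were called in both in the same direction. The median log2 fold change of the 8 genes was 0.41 in non-foamy and 0.42 in foamy cells, against 0.017 and 0.00031 over all genes tested. Where libraries are said below not to overlap, the share of all genes that separate this way was not counted.

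The TMM factors differed by genotype, from 0.966 to 1.11 in WT libraries and from 0.918 to 0.983 in Trem2-/- libraries. With total counts alone, the median log2 fold change of all genes moved to -0.13 in both genotype comparisons, and higher genes made up 29.4% of calls in non-foamy cells in place of 48.1% and 23.3% in foamy cells in place of 47.4%. The 8 genes kept their signs under this scaling. The calls of C1qb, C3 and C3ar1 held in both comparisons under it.

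**Figure D2:**
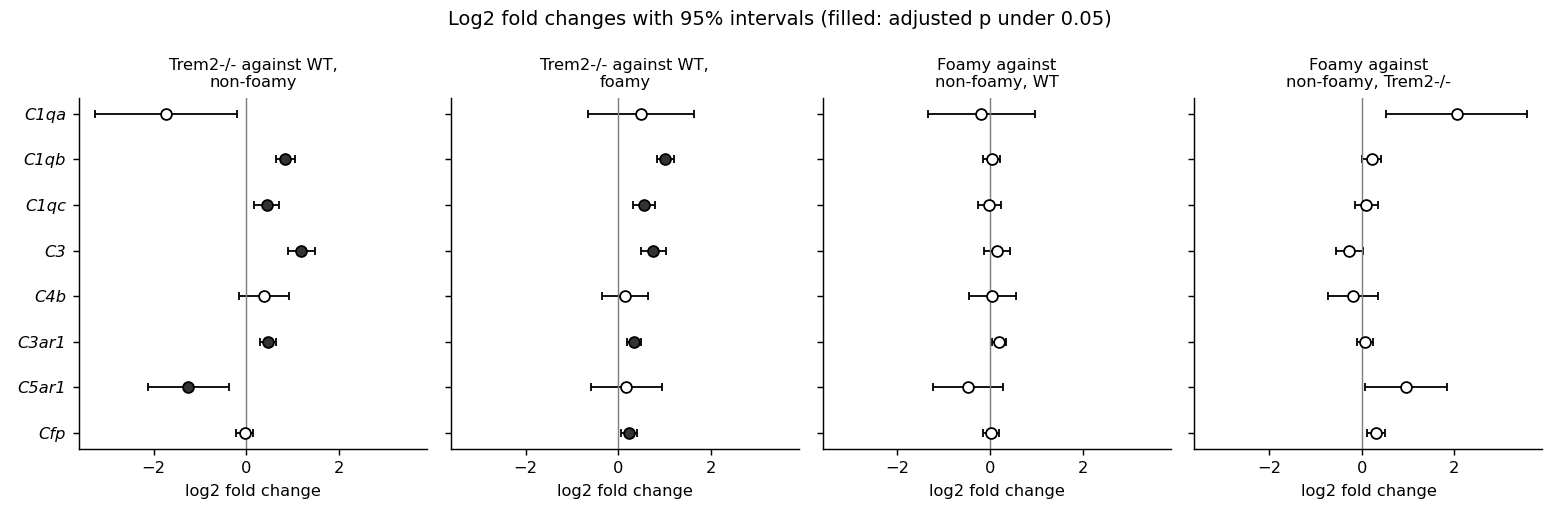
Log2 fold change of each complement gene in 4 comparisons, with 95% intervals from the fitted model as bars and filled points for an adjusted p under 0.05. C1qb, C1qc, C3 and C3ar1 were called in both Trem2-/- against WT comparisons, and no gene was called in either foamy against non-foamy comparison.

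C1q is built from the A, B and C chains, and their genes lie side by side on the minus strand of mouse chromosome 4. In GRCm38, C1qb spans chr4:136880129-136886187, C1qc chr4:136889804-136893065 and C1qa chr4:136895917-136898803, with 3616 and 2851 bases between neighbours. Each gene has 3 exonic blocks, no annotated exon of another gene overlaps them, and no stretch of 50 bases is shared with another gene.

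C1qb read 15.5, 17.0, 15.8 and 13.7 CPM in WT non-foamy libraries and 14.4, 15.8, 16.7 and 16.3 CPM in WT foamy libraries. It read 25.4, 27.7 and 30.2 CPM in Trem2-/- non-foamy libraries and 34.1, 32.7, 33.2 and 28.1 CPM in Trem2-/- foamy libraries. Every Trem2-/- library lay above every WT library. C1qb was 1.79-fold higher in Trem2-/- non-foamy cells (log2 fold change 0.84 ± 0.096 SE, adjusted p = 2.10e-07) and 2.03-fold higher in Trem2-/- foamy cells (1.02 ± 0.089 SE, adjusted p = 1.37e-08).

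C1qc read 7.03, 8.02, 9.46 and 8.99 CPM in WT non-foamy libraries and 8.98, 7.67, 7.85 and 8.53 CPM in WT foamy libraries. In Trem2-/- cells it read 10.8, 10.03 and 13.0 CPM without cholesterol and 13.3, 12.6, 12.5 and 10.02 CPM with it. The lowest Trem2-/- library, at 10.02 CPM, lay above the highest WT library, at 9.46 CPM. The log2 fold change was 0.44 ± 0.13 SE (adjusted p = 0.00697) in non-foamy and 0.55 ± 0.12 SE (adjusted p = 0.000887) in foamy cells. The non-foamy call was lost without Trem2-/- non-foamy replicate 3, the library at 13.0 CPM (0.32, adjusted p = 0.0728), and with total counts alone (0.30, adjusted p = 0.0843).

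C1qa was near the floor of detection in every library although its neighbours were not. The 15 libraries held 1 to 16 C1qa reads each, against 359 to 1226 for C1qb and 215 to 478 for C1qc. WT non-foamy libraries held 10, 12, 4 and 10 reads, and Trem2-/- non-foamy libraries held 2, 4 and 1. The levels were 0.261 ± 0.0902 CPM (SD, n = 4) in WT non-foamy, 0.228 ± 0.103 (SD, n = 4) in WT foamy, 0.0781 ± 0.0585 (SD, n = 3) in Trem2-/- non-foamy and 0.330 ± 0.213 CPM (SD, n = 4) in Trem2-/- foamy cells. In non-foamy cells the genotypes differed by a log2 value of -1.74 ± 0.74 SE, which did not pass (adjusted p = 0.0611), and it did without Trem2-/- non-foamy replicate 2 (-2.43, adjusted p = 0.0464) and with total counts alone (-1.89, adjusted p = 0.0413). Counts this low leave a wide interval, from -3.27 to -0.21.

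Since a ratio of reads within a library needs no scaling, the chains were also compared with each other. For every 100 C1qb reads, C1qc had a geometric mean of 53.9 reads in WT non-foamy and 52.2 in WT foamy libraries, and 40.6 and 37.6 reads in Trem2-/- non-foamy and foamy libraries. C1qa had 1.62, 1.34, 0.234 and 0.856 reads in the same order. These are read ratios and not ratios of molecules, since the exonic lengths are 1040, 1088 and 1931 bases for C1qa, C1qb and C1qc.

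The log2 ratio of C1qc to C1qb was lower in Trem2-/- than in WT foamy libraries by 0.47, without overlap (difference -0.47, two-sided exact permutation p = 0.0286, the smallest that 4 against 4 allows). It differed by -0.41 in non-foamy libraries, also without overlap (exact permutation p = 0.0571, the smallest that 3 against 4 allows). The C1qa to C1qb ratio differed by -2.79 in non-foamy libraries without overlap (exact permutation p = 0.0571). Adjusted over the 8 ratio tests these 3 values rose to 0.152, and the other 5 adjusted values ranged from 0.343 to 0.857. With groups of this size no value adjusted over the 8 tests could fall under 0.05. The adjusted values therefore cannot decide whether the ratios differ. The C1qc to C1qb difference in foamy cells kept its sign, at -0.52 to -0.39, whichever library was left out, with p = 0.0571 in each of these exact permutation tests.

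**Figure D3:**
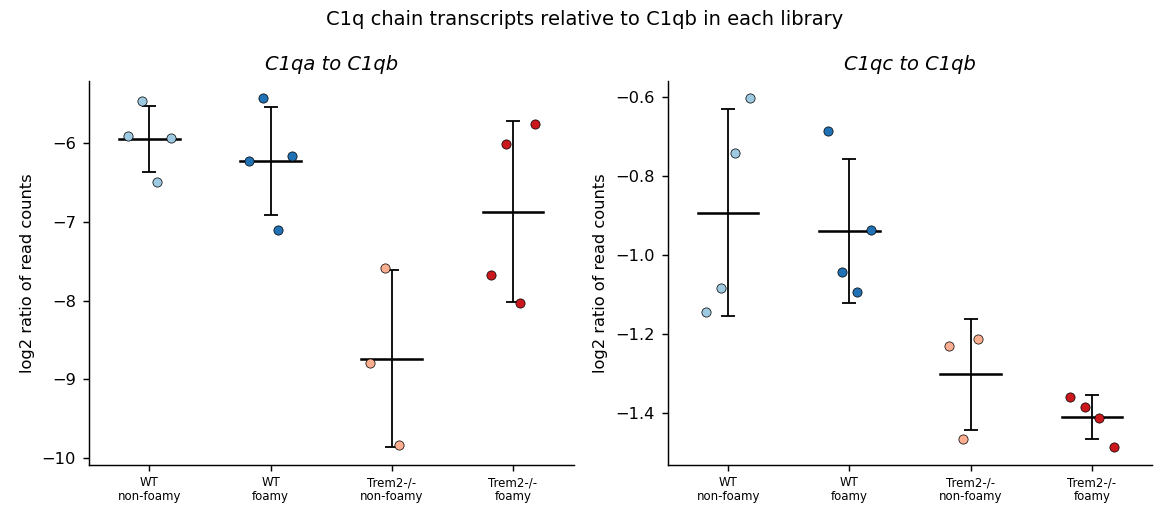
Log2 ratio of C1qa and of C1qc reads to C1qb reads in each library, with the mean and SD of each group as lines and bars. The 7 Trem2-/- libraries lay below the 8 WT libraries for C1qc to C1qb, and the C1qa ratio spread widely because it rests on 1 to 16 reads per library.

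C3 is the protein on which the pathways of activation converge, and C4b is its counterpart in the classical and lectin pathways. C3 lies at chr17:57203970-57228136 and C4b at chr17:34728380-34743882, both on the minus strand. C3 read 22.6, 27.8, 19.3 and 27.2 CPM in WT non-foamy libraries and 34.9, 28.6, 20.9 and 23.7 CPM in WT foamy libraries. Trem2-/- libraries read 59.6, 49.0 and 57.4 CPM without cholesterol and 47.4, 45.4, 52.4 and 38.7 CPM with it. All 7 Trem2-/- libraries lay above all 8 WT libraries.

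C3 was 2.28-fold higher in Trem2-/- non-foamy cells (log2 fold change 1.19 ± 0.14 SE, adjusted p = 3.93e-07) and 1.70-fold higher in Trem2-/- foamy cells (0.76 ± 0.13 SE, adjusted p = 0.000116). The difference between these values is the difference between the genotypes in their response to cholesterol, at -0.42 ± 0.19 SE, and it did not pass (adjusted p = 0.251). It passed when no filter on low counts was used (adjusted p = 0.0267), and in the other alternatives the adjusted p reached 0.462.

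C4b was low, with 24 to 70 reads per library, and its groups overlapped. It read 1.37 ± 0.231 CPM (SD, n = 4) in WT non-foamy, 1.43 ± 0.204 (SD, n = 4) in WT foamy, 1.80 ± 0.231 (SD, n = 3) in Trem2-/- non-foamy and 1.57 ± 0.473 CPM (SD, n = 4) in Trem2-/- foamy cells. By genotype the log2 fold change was 0.39 in non-foamy cells (95% interval -0.15 to 0.93, adjusted p = 0.240) and 0.14 in foamy cells (-0.35 to 0.64, adjusted p = 0.700). Of the 50-base stretches of its annotated transcripts, 34.6% also occur in C4a, a near copy on the same chromosome. C4a held at most 10 reads in a library, and the handling of reads that match both genes is not given in the sources used here.

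Properdin, the product of Cfp, is made by myeloid cells and is the positive regulator of the alternative pathway. The gene lies at chrX:20925454-20931555. Cfp read 30.7, 27.0, 33.3 and 31.8 CPM in WT non-foamy libraries and 31.1, 30.6, 28.1 and 34.9 CPM in WT foamy libraries. It read 30.3, 27.7 and 31.8 CPM in Trem2-/- non-foamy libraries and 39.9, 38.1, 36.7 and 32.6 CPM in Trem2-/- foamy libraries. The WT groups and Trem2-/- non-foamy cells overlapped throughout, and 3 of 4 Trem2-/- foamy libraries lay above every library of these groups.

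Cfp was 1.18-fold higher in Trem2-/- than in WT foamy cells (log2 fold change 0.24 ± 0.084 SE, adjusted p = 0.0328). In non-foamy cells the value was -0.036 (95% interval -0.23 to 0.15, adjusted p = 0.783). The foamy call was lost with total counts alone (0.11, adjusted p = 0.372) and without any one of 6 of its 8 libraries, namely WT foamy replicates 1, 2 and 3 and Trem2-/- foamy replicates 1, 2 and 3 (0.19 to 0.24, adjusted p from 0.0550 to 0.110). The difference between the genotypes in their response to cholesterol was 0.28 ± 0.12 SE and did not pass (adjusted p = 0.245).

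C3ar1 and C5ar1 encode G protein-coupled receptors for the anaphylatoxins. C3ar1, at chr6:122847138-122856161, was the most abundant of the 8 transcripts. It read 132, 135, 161 and 129 CPM in WT non-foamy libraries and 141, 161, 171 and 162 CPM in WT foamy libraries. Trem2-/- libraries read 188, 199 and 193 CPM without cholesterol and 206, 188, 195 and 221 CPM with it. The lowest Trem2-/- library, at 188 CPM, lay above the highest WT library, at 171 CPM. C3ar1 was 1.39-fold higher in Trem2-/- non-foamy cells (log2 fold change 0.47 ± 0.080 SE, adjusted p = 4.62e-05) and 1.27-fold higher in Trem2-/- foamy cells (0.35 ± 0.074 SE, adjusted p = 0.000986).

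C5ar1, at chr7:16246743-16259540, was low and variable. WT non-foamy libraries read 0.622, 1.74, 1.14 and 1.94 CPM and WT foamy libraries 0.918, 0.513, 1.56 and 0.973 CPM. Trem2-/- non-foamy libraries read 0.513, 0.649 and 0.563 CPM, from 17 to 18 reads each, and Trem2-/- foamy libraries 1.501, 1.34, 0.759 and 0.817 CPM. Trem2-/- non-foamy libraries were low throughout, and WT non-foamy replicate 1, at 0.622 CPM, lay among them. C5ar1 was lower in Trem2-/- non-foamy cells by log2 fold change (-1.25 ± 0.42 SE, adjusted p = 0.0201), and in foamy cells the value was 0.18 (95% interval -0.58 to 0.94, adjusted p = 0.763). The non-foamy call was lost without WT non-foamy replicate 2 or 4 or Trem2-/- non-foamy replicate 1 or 3 (-1.24 to -1.01, adjusted p from 0.0550 to 0.0804). The difference between the genotypes in their response to cholesterol was 1.43 ± 0.56 SE and did not pass (adjusted p = 0.171).

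**Figure D4:**
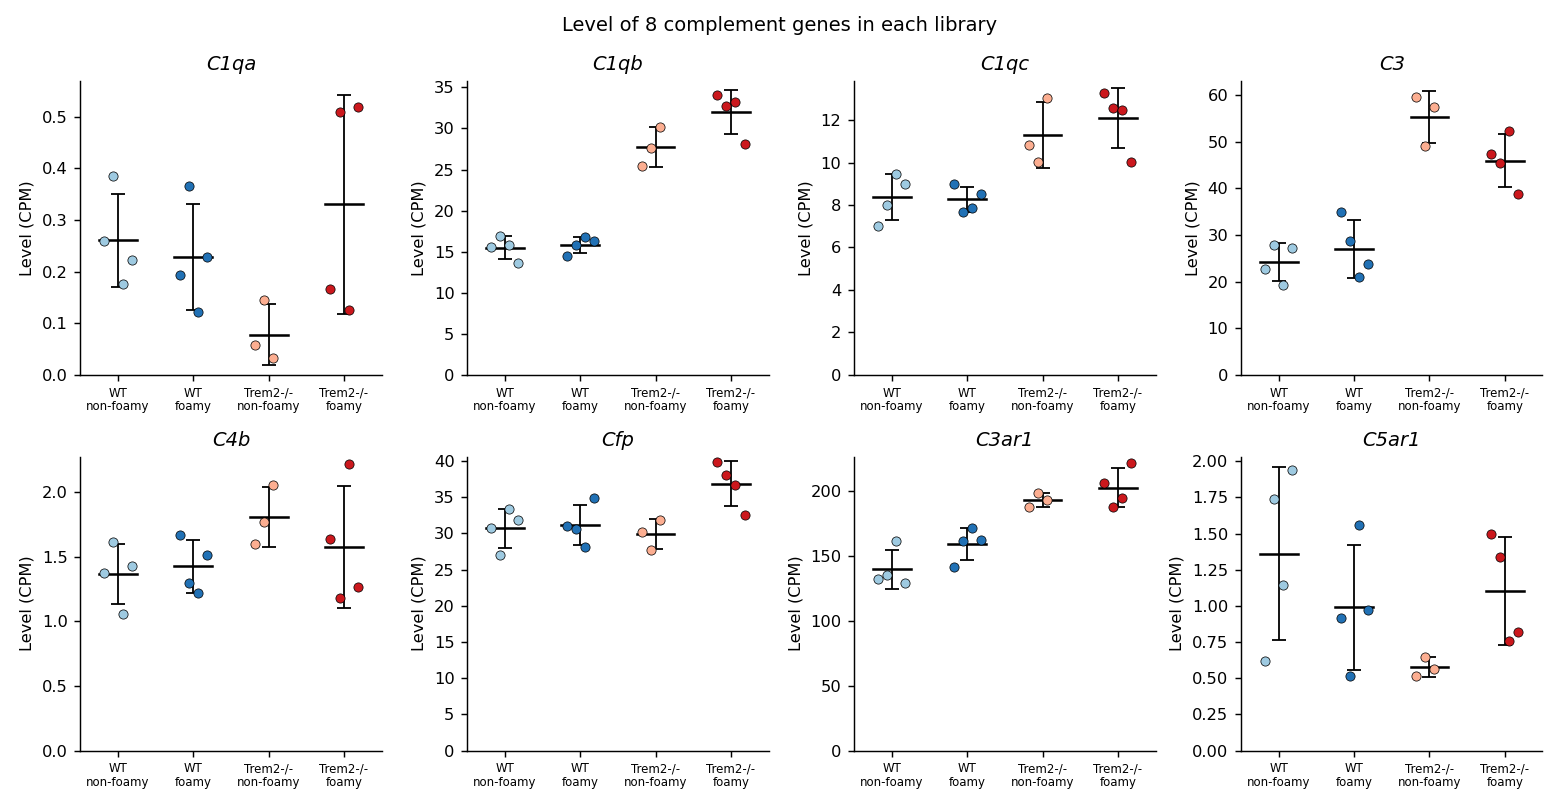
CPM of each complement gene in every library, with 1 panel per gene, points for libraries and lines with bars for the mean and SD of each group. The Trem2-/- libraries lay above all WT libraries for C1qb, C1qc, C3 and C3ar1, and the groups overlapped for C4b. The share of all genes that separate this way was not counted.

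The genes differed in how far replicates spread. The coefficient of variation among libraries of a group had a median over the 4 groups of 7.59% for C3ar1, 8.54% for C1qb, 8.62% for Cfp and 12.3% for C1qc, where counting alone gives 1.30%, 3.77%, 3.08% and 5.57%. C3 had a median of 14.5%, with counting alone at 2.96%. The medians were 15.6% for C4b, 38.5% for C5ar1 and 54.8% for C1qa, against 14.3%, 17.8% and 37.4% from counting alone. Of these 8 genes, C3 and C3ar1 thus had the most spread beyond counting in proportion, and C4b varied little beyond it except in Trem2-/- foamy cells, at 30.0% against 14.8% from counting alone.

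The response to overnight cholesterol was compared within each genotype. In WT cells 0 of 8 genes had an adjusted p under 0.05 in edgeR, and 0 in DESeq2. At an unadjusted p under 0.05 there was 1, C3ar1, with a log2 fold change of 0.19 ± 0.074 SE (adjusted p = 0.183). Over all 14237 genes tested, edgeR called 2.80% and DESeq2 called 896 genes, and 16.4% had an unadjusted p under 0.05 in edgeR. C3ar1 passed without WT non-foamy replicate 3, the library at 161 CPM (0.27, adjusted p = 0.0276). The 95% intervals of C1qb, C1qc and Cfp lay within -0.26 and 0.23, and that of C3 was -0.12 to 0.43.

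In Trem2-/- cells 0 of 8 genes were called in edgeR and 0 in DESeq2. Of all 14237 genes tested, edgeR called 0.140% and DESeq2 called 54 genes. At an unadjusted p under 0.05 there were 4 of 8, against 6.44% of all genes tested. Cfp had a log2 fold change of 0.30 (95% interval 0.11 to 0.49, adjusted p = 0.479) and C1qb of 0.21 (0.012 to 0.40, adjusted p = 0.768). C5ar1 had 0.95 (0.063 to 1.84, adjusted p = 0.768) and C1qa 2.05 (0.53 to 3.56, adjusted p = 0.629), both from few reads. The 4 Trem2-/- foamy libraries did not overlap the 3 non-foamy ones for Cfp and C5ar1, and the share of all genes that do so was not counted. C3 had a value of -0.27 (-0.56 to 0.020, adjusted p = 0.791).

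The difference between the genotypes in their response was tested directly and called 0 of 8 genes in edgeR and in DESeq2. Over all 14237 genes tested, edgeR called 3.63% and DESeq2 called 968 genes. At an unadjusted p under 0.05 there were 4 of 8, namely C1qa, C3, C5ar1 and Cfp, against 17.3% of all genes tested. For C1qb, C1qc and C3ar1 the difference was 0.18 (95% interval -0.095 to 0.45), 0.11 (-0.24 to 0.47) and -0.12 (-0.35 to 0.11). Each comparison here shares a group with others, and all come from the same fit. Their values are therefore given side by side and not as independent results.

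The rest of the cascade was described from a list of 49 other complement genes. Of these, 16 passed the filter on low counts and 33 did not. None of the 33 exceeded 0.361 CPM in any library, and 18 had 0 reads in all 15 libraries. The genes at 0 included Cfb and Cfd of the alternative pathway, C6, C7, C8a and C8b of the membrane attack complex, and the receptor Vsig4. A count of 0 allows up to 3 reads in a library, by counting error alone. Of the exonic bases of Cfb, 79.5% overlap another annotated gene on the same strand, and how such reads were counted is not given in the sources used here.

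By role, 2 of 12 initiators were tested, 1 of 5 central components, 1 of 6 terminal components, 4 of 16 inhibitors and regulators, and 8 of 10 receptors. In non-foamy cells 9 of 16 were called, 5 higher and 4 lower in Trem2-/- cells, and in foamy cells 5 of 16 were called, 3 higher and 2 lower. Each of the 5 was also called in non-foamy cells, in the same direction, where 24.9% of all genes tested were called in both in this way. The median log2 fold change of the 16 was 0.11 and -0.0018. The background was 43.6% and 30.2% of all genes tested.

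The receptors held most of these calls, 6 of 8 in non-foamy and 4 of 8 in foamy cells. Cd93 encodes a C-type lectin-like membrane protein first described as a C1q receptor. It read 18.2, 20.2, 13.7 and 20.0 CPM in WT non-foamy and 24.8, 20.5, 19.2 and 18.5 CPM in WT foamy libraries. It read 5.58, 6.35 and 6.02 CPM in Trem2-/- non-foamy and 5.50, 5.44, 4.81 and 4.45 CPM in Trem2-/- foamy libraries. The log2 fold change was -1.60 ± 0.14 SE (adjusted p = 3.43e-09) in non-foamy and -2.03 ± 0.13 SE (adjusted p = 6.23e-11) in foamy cells, without overlap of the genotypes.

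C5ar2 encodes the second C5a receptor and lies beside C5ar1 on chromosome 7. It read 3.11, 3.41, 2.11 and 3.03 CPM in WT non-foamy libraries and 1.34, 1.23 and 1.59 CPM in Trem2-/- non-foamy libraries, a log2 fold change of -1.08 ± 0.23 SE (adjusted p = 0.000630). In foamy cells the value was -0.46 ± 0.21 SE (adjusted p = 0.0977), and it passed without WT foamy replicate 3 (-0.59, adjusted p = 0.0386) and with total counts alone (-0.60, adjusted p = 0.0414).

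The other receptor calls are named after their values were seen. Itgax and Itgb2, the chains of complement receptor 4, were higher in Trem2-/- cells in both conditions. In non-foamy cells the values were 0.85 ± 0.10 SE (adjusted p = 4.34e-07) and 0.42 ± 0.078 SE (adjusted p = 0.000141). In foamy cells they were 0.49 ± 0.095 SE (adjusted p = 0.000401) and 0.24 ± 0.072 SE (adjusted p = 0.0144), and the libraries overlapped for Itgb2. The integrin gene Itgam of the same list was not called in non-foamy (0.14, adjusted p = 0.186) or foamy cells (0.18, adjusted p = 0.0845). Another annotated gene on the same strand overlaps 68.7% of the exonic bases of Itgam. How such reads were counted is not given in the sources used here. Lrp1, a large endocytic receptor, was higher in non-foamy cells by 0.48 ± 0.14 SE (adjusted p = 0.00897), and in foamy cells its value was -0.028 (adjusted p = 0.902). Calr, the chaperone calreticulin, was lower in both conditions, by -0.47 ± 0.065 SE (adjusted p = 3.28e-06) and -0.34 ± 0.060 SE (adjusted p = 0.000129).

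Among inhibitors and initiators, Clu encodes clusterin, a secreted chaperone that binds the terminal complex. Clu read 117, 139, 128 and 129 CPM in WT non-foamy libraries and 145, 160, 150 and 151 CPM in WT foamy libraries. It read 201, 207 and 204 CPM in Trem2-/- non-foamy and 203, 202, 188 and 193 CPM in Trem2-/- foamy libraries. Clu was higher in Trem2-/- cells in both conditions, by 0.67 ± 0.062 SE (adjusted p = 1.23e-08) and 0.37 ± 0.058 SE (adjusted p = 3.92e-05).

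Clu was the only gene of the complement list, the 8 included, called in a cholesterol comparison. It rose in WT foamy cells by 0.24 ± 0.058 SE (adjusted p = 0.0251), where 2.80% of all genes tested were called in edgeR. In Trem2-/- cells 0 of the 16 were called in edgeR or in DESeq2, where 0.140% of all genes tested were called in edgeR. At an unadjusted p under 0.05 in edgeR there were 4 of 16 in the WT response and 0 in the Trem2-/- response. In the difference between the responses there were 4 of 16. The shares of all genes tested were 16.4%, 6.44% and 17.3% in the same order. The WT call of Clu was lost with only the WT libraries in the fit and without WT non-foamy replicate 1 or 4 or WT foamy replicate 2 or 3 (0.20 to 0.25, adjusted p from 0.0551 to 0.113). The difference between the genotypes in the response of Clu was -0.30 ± 0.085 SE (adjusted p = 0.0533), and DESeq2 called it (adjusted p = 0.0106). It also passed with at least 10 reads required in every library and without WT non-foamy replicate 2 or WT foamy replicate 1 (-0.34 to -0.30, adjusted p from 0.0372 to 0.0494).

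Chosen after its values were seen, Fcna, which encodes the lectin pathway protein ficolin A, was higher in Trem2-/- non-foamy cells by 0.34 ± 0.093 SE (adjusted p = 0.00453). In foamy cells its value was 0.21 (adjusted p = 0.0632).

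**Figure D5:**
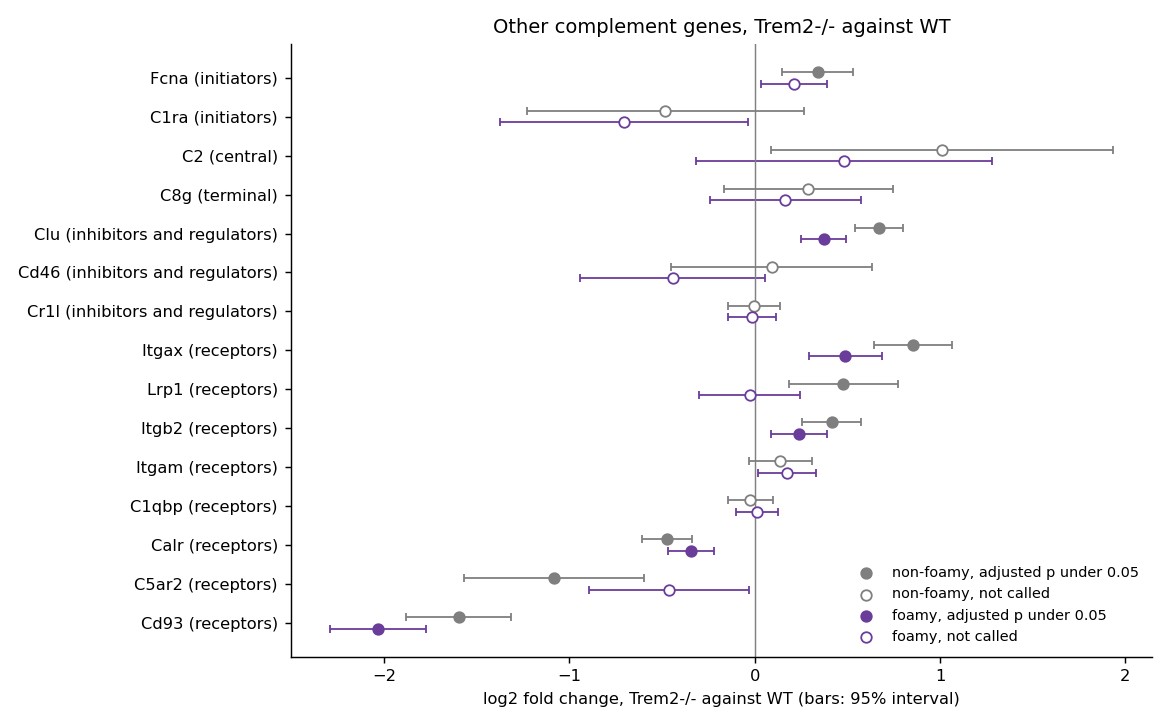
Log2 fold change of Trem2-/- against WT for 15 of the 16 other complement genes that passed the count filter, ordered by role, with 95% intervals as bars and filled points for an adjusted p under 0.05. Cd93 lay lowest in both conditions, and Clu, Itgax and Itgb2 were higher in both.

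Genes whose 4 group means followed each complement gene most closely were listed as a description, among 11701 genes that averaged 1 CPM or more. Likeness was the root mean square difference of the 4 group means of log2 CPM, each gene centred on its own mean. For C1qb these were Lncbate10, Slc13a3 and Gm16104 (0.031, 0.032 and 0.045 on the log2 scale), and for C1qc 2610306M01Rik, Gm47694 and 4632404H12Rik (0.014, 0.019 and 0.020). For C3 they were Gm5431, H2-Q1 and St18 (0.032, 0.034 and 0.037), and for C3ar1 Zfp712, Arhgap27 and Cnst (0.0035, 0.0066 and 0.014). For Cfp they were Gstp2, Trmt61b and Gm6055 (0.021, 0.030 and 0.030), and for C4b Zup1, Rps12-ps4 and Maskbp3 (0.012, 0.013 and 0.013). The nearest patterns were farther off for C5ar1 and C1qa, with Gm12184, Hip1r and Gm12418 for C5ar1 (0.066, 0.077 and 0.084) and Gm36401, Gm7901 and Gm45133 for C1qa (0.15, 0.19 and 0.23). These are 4 points per gene from shared libraries, and no test was made.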

How the data were processed

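The authors deposited raw read counts per gene, 1 table of whole numbers per library. By the study's methods, BV2 cells were lysed with TRIzol, and reads were trimmed with Trimmomatic, aligned to GRCm38 with HISAT2 and counted with featureCounts in the CHURP pipeline. Whether counting used strand, and how reads with more than 1 match were treated, is not given in the sources used here. No normalization had been applied to the deposited counts.

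Genes were kept by filterByExpr with a minimum count of 10, which left 14237 genes. Libraries were scaled with TMM, and all 15 were fitted together, with 1 mean per group, by the quasi-likelihood test of edgeR 4.0.16 (glmQLFit, glmQLFTest; R 4.3.3). The p-values were adjusted by the Benjamini-Hochberg method over all genes tested, and a gene was called at an adjusted p under 0.05. SE is the standard error implied by the F statistic, and 95% intervals use its degrees of freedom. The common biological coefficient of variation was 10.2%. Intervals for single genes are not adjusted for the number of genes. Chain ratios were compared with two-sided exact permutation tests in SciPy 1.17.1.

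Over 21 replicate pairs the chi-square per gene was 5.95 to 45.2, so replicates varied beyond counting. Positions, exonic lengths and shared stretches of 50 bases come from GENCODE annotation and transcripts of GRCm38, and promoters from RefSeq. The 8 genes, the list of other complement genes, the markers, the motifs and the tests were chosen with earlier results of these data known. All 8 genes were named. Other complement genes were named when called between genotypes with a log2 change of 1 or more in size, or called in a cholesterol comparison or in the difference between the responses, and the like genes were the nearest 3 by the measure given. Itgax, Itgb2, Itgam, Lrp1, Calr and Fcna fall outside this rule and were chosen after their values were seen. Genes with 0 reads and C4a are named as descriptions. A gene of the list that was counted is not reported here by itself. The steps were tested on simulated data. The alternatives were DESeq2 1.42.0, RLE factors, total counts alone, no filter, a stricter filter (10 or more reads in all libraries), a fit without the groups not compared, a replicate block, a call rule that also asks for a log2 change of 1 or more in size, and dropping each library in turn.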

Additional observations from a re-analysis of the deposited data

How the results depend on the processing

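C1qb, C3 and C3ar1 kept their genotype calls in both culture conditions under each of the other fits and without any 1 library. None of them kept both calls under a rule that also asks for a log2 change of 1 or more in size. It left 2 complement genes called in non-foamy cells (C3 at 1.19 and C5ar1 at -1.25) and 1 in foamy cells (C1qb at 1.02). It left 2 and 1 of the other complement genes. That rule, and the fit on only the libraries compared, left 0 other complement genes called in the WT response. Without a filter on low counts 1 complement gene (C3) was called in the difference between the responses, and 2 other complement genes were called in the WT response and 2 in that difference, where DESeq2 and the filter of at least 10 counts in every library each called 1; the cause was not tested. Leaving out 1 library gave 0 to 1 complement genes called in the WT response, 0 in the Trem2-/- response and in the difference, 3 to 6 in non-foamy and 4 to 5 in foamy cells, with 3 without Trem2-/- non-foamy replicate 3. For the other complement genes it gave 0 to 1 in the WT response, 0 in the Trem2-/- response, 9 to 10 in non-foamy cells, 4 to 6 in foamy cells and 0 to 1 in the difference. Over all 14237 genes tested, DESeq2 called 968 in the difference, against 517 in the main fit. For the other rules and fits with counts in this paragraph, and for the replicate block below, the share of all genes called was not counted. A change in the complement genes and a change in how strict a rule is cannot be told apart from these counts.

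Values that changed sign when 1 library was left out were small or rested on few reads. In the WT response they ranged from -0.52 to 0.045 for C1qa, -0.026 to 0.080 for C1qb, -0.093 to 0.043 for C1qc, -0.039 to 0.13 for C4b and -0.037 to 0.061 for Cfp. Between genotypes they ranged from -0.093 to 0.015 for Cfp in non-foamy cells, and from -0.065 to 0.26 for C4b and -0.043 to 0.47 for C5ar1 in foamy cells. In the WT response the log2 ratio of C1qa to C1qb ranged from -0.55 to 0.010 and that of C1qc to C1qb from -0.13 to 0.050. In foamy cells the C1qc to C1qb difference by genotype ranged from -0.52 to -0.39.

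Deviations of same-numbered libraries correlated weakly (-0.077 to 0.14), which cannot decide whether the numbers pair the samples. Between WT non-foamy and WT foamy libraries, numbers 1 and 3 correlated at 0.088 and 0.14, above the highest other number (-0.024 and 0.073). So did number 1 between WT and Trem2-/- non-foamy libraries (0.029 against -0.0125). With a replicate block the calls of complement genes went from 5 to 4 in non-foamy cells, where C5ar1 was lost (-1.19, adjusted p = 0.0522), and stayed at 5 in foamy cells. In the paired sign-flip test over replicate numbers the C1qc to C1qb difference in foamy cells was -0.47, with an exact p of 0.125, the smallest that 4 pairs allow. In foamy cells every WT library correlated with the Trem2-/- library of its own number no better than with the highest of the other numbers.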
